A study of Mus musculus with 9 samples.

Results

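Premalignant Eµ-Myc pre-B cells gave 2 lists of UBTF peaks, and 10778 peaks of replicate 1 had their summit within 200 bp of a replicate 2 summit. To choose them, lines on the rDNA sequence were dropped from each list and the best 75000 lines by the peak caller's score were kept. A member is a kept replicate 1 line whose summit lay at most 200 bp from a kept replicate 2 summit. The members were 14.4% of the kept replicate 1 lines, and 10657 replicate 2 lines, 14.2% of those kept, lay as close to a replicate 1 summit. The lists of all 6 libraries together held 1796553 lines outside rDNA. The members came from 10121 distinct regions, of which 9593 held a single member, since several summits can share 1 region.

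The series profiled UBTF by chromatin immunoprecipitation sequencing (ChIP-seq) in bone marrow pre-B cells of C57BL/6 mice at 3 stages. Wild type mice and premalignant mice heterozygous for the Eµ-Myc transgene were 4 to 6 weeks old, and malignant mice, heterozygous for the same transgene and with established lymphoma, were 10 to 20 weeks old. Each stage had 2 UBTF libraries, which the study describes as individual animals, and 3 input samples have no peak list and were not analysed here. By the study's methods, wild type and premalignant cells were sorted as B220 high, IgM low and IgD low, and malignant cells as B220 positive and negative for IgM and IgD, so the gate differed with the malignant stage. Chromatin was precipitated with an in-house rabbit antiserum against UBTF1/2, and libraries were made with the ThruPLEX-FD kit. The transgene places Myc under the immunoglobulin heavy chain enhancer, so that it is expressed in the B cell lineage. Wild type and premalignant mice were female by the study's methods. A peak list holds no expression or genotype, so neither the cell type nor the transgene could be checked from it.

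UBTF, the upstream binding transcription factor, is an HMG-box protein that coats the active rDNA repeats and, with the SL1 complex, brings RNA polymerase I to the ribosomal RNA genes. Its HMG boxes bend DNA and have little sequence preference, and UBTF has also been mapped outside rDNA at genes read by RNA polymerase II, histone genes among them. MYC raises ribosomal RNA synthesis and UBTF expression in many cell types.

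The 2 premalignant lists differed in size and shape before any matching. Replicate 1 held 78113 lines, 39 of them on rDNA, and replicate 2 held 575674 lines, 78 of them on rDNA. The last line kept had a score of 2.22 in replicate 1 and of 13.2 in replicate 2, and in both lists the first line left out had the same score as the last one kept. These scores are not scaled between libraries and were used only to rank lines within a list, with rank 1 for the highest. The median width of a kept region was 2005 bp in replicate 1 and 6528 bp in replicate 2. The narrowest kept region was 240 to 260 bp wide in both wild type lists and premalignant replicate 1, and 670 to 800 bp in the malignant lists and in replicate 2 of the premalignant stage. This width splits the 2 premalignant libraries, and it cannot be told apart from the stage between wild type and malignant. The highest false discovery rate (FDR) among kept lines was 8.68e-05 in replicate 1 and 0.000147 in replicate 2. Read depth is unknown for every list.

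Sequence around summits, taken from mm9 with 100 bp on each side, fell into 3 groups that were defined after the sequences had been seen. Tandem repeats, with at least 40 bp of a unit of 1 to 6 bp, held 3238 members (30.04%), a share that was 10.99% in a 51 bp window and 9.37% with a minimum of 60 bp. GC-rich members, with at least 60% GC and no such repeat, were 874 (8.11%). The other 6666 members (61.8%) are called the high-copy group, because 90.0% of them had a median of over 100 mm9 copies for their 24-base words. The sequences below show each group. The first pair are the members with ranks 1 and 3 in replicate 1, at chr16:11144086-11144286 on the plus strand and chr9:56071495-56071695 on the minus strand, and capitals mark the 104-base stretch they share. The intergenic member nearest Car10 at chr11:92624108-92624308 shows the AG unit, with the repeat in capitals.
mmu-mir-689-2: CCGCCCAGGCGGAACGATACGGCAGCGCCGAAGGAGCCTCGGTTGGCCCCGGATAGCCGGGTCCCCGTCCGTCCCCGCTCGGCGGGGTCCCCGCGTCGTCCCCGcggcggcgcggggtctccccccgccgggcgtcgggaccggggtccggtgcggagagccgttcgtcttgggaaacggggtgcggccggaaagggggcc
mmu-mir-2134-4: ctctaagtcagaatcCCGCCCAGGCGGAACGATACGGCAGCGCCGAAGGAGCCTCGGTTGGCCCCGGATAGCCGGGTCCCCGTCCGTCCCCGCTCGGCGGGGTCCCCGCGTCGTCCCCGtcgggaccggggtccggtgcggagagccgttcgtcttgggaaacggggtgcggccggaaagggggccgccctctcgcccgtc
Car10: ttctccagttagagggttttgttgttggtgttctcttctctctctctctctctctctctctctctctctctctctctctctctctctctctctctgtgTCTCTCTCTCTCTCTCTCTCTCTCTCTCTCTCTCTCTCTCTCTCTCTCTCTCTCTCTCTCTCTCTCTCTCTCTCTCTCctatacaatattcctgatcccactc

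GC-rich members at gene starts are shown by the shared promoter of Elf1 and Wbp4 at chr14:79880468-79880668, by part of the Ubtf promoter at chr11:102180411-102180492 and by the Ebf1 promoter at chr11:44431799-44431999, with each CpG in capitals. Annotated UTR bases were left out, which shortened the Ubtf stretch to 82 bases. The high-copy group is shown by the member in the middle of that group by mean rank, at chr17:58675604-58675804, with its most copied 24-base word in capitals. That word occurred 40498 times in mm9. All are on the plus strand.
Elf1 and Wbp4: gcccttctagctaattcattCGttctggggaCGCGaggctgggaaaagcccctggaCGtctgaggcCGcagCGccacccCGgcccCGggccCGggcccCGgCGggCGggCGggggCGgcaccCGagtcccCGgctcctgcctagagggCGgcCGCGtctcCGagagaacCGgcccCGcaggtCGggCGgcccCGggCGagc
Ubtf: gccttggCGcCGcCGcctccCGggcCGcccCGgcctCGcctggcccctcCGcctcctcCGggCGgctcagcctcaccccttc
Ebf1: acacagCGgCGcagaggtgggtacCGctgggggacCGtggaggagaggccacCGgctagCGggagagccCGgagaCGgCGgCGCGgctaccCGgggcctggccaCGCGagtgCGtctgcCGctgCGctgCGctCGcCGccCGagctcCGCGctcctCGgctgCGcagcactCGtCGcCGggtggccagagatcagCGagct
High-copy member: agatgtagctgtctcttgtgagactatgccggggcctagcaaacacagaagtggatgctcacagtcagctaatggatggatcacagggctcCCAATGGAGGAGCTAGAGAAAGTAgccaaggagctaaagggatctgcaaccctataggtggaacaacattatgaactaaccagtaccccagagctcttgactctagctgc

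Matching between the animals depended strongly on rank. Of the best 100 lines, 98 of replicate 1 and 97 of replicate 2 were within 200 bp of a kept summit of the other list. Of the best 5000 lines of replicate 1, 2689 (53.8%) were members. The share fell to 6.38% at ranks 20001 to 25000 and then rose again, to 15.2% among the last 5000 kept lines. The first bin was made mostly of tandem repeats, with 1949 of its 2689 members, and the last bin mostly of the high-copy group, with 706 of its 758 members. Replicate 2 gave 36.9% in its best 5000 lines and 10.4% in its last 5000, with no second rise of that size. For comparison, 1.16% of the sequenced bases of mm9 lay within 200 bp of a kept replicate 2 summit. The ranks of members in the 2 lists had a Spearman rho of 0.23 over the 10778 members, which share sequence with each other and are not independent. Within the groups it was 0.545 for tandem repeats, 0.27 for GC-rich members and 0.12 for the high-copy group.

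**Figure D1:**
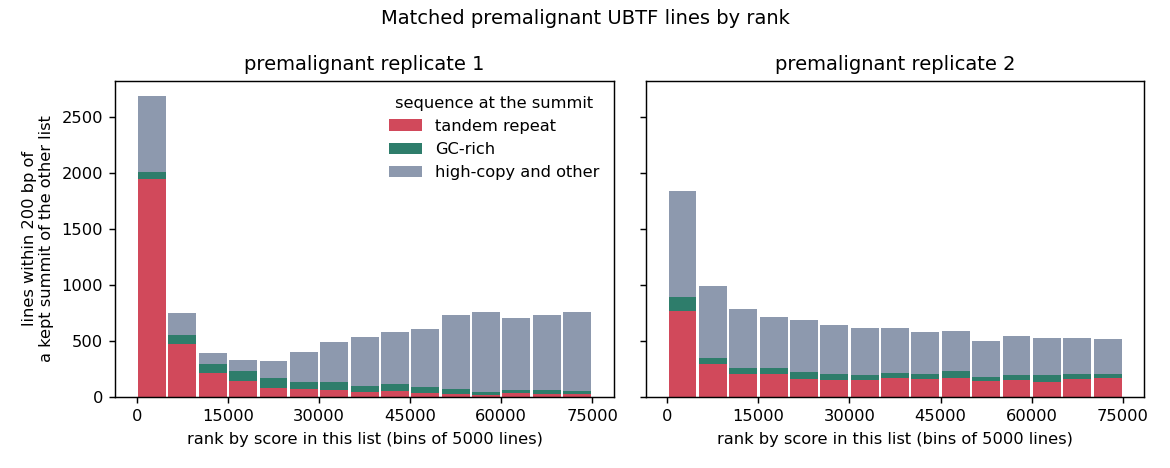
Number of lines within 200 bp of a kept summit of the other premalignant list (y axis), in bins of 5000 lines by rank (x axis), for replicate 1 (left) and replicate 2 (right), with colours for the sequence at the summit. Replicate 1 has 2689 matched lines in its first bin, mostly tandem repeats, and a second rise to 758 in its last bin, mostly of the high-copy group.

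The distance between the paired summits also differed by group. The median distance over all members was 38.0 bp. Tandem repeat summits lay 10.0 bp apart at the median, and 90.3% of them lay within 50 bp. The median was 69.0 bp in the high-copy group and 81.0 bp in GC-rich members. Near the limit, 284 members had a distance in the last 10 bp inside it and 274 replicate 1 lines lay in the first 10 bp outside it. Among GC-rich replicate 1 summits, 344 had their nearest replicate 2 summit in the last 100 bp inside the limit and 1556 had it beyond 600 and up to 1000 bp, which is 1.72 and 1.95 lines per bp of distance. Tandem repeats fell from 57.9 lines per bp at 0 to 20 bp to 0.31 beyond 600 and up to 1000 bp. The density of GC-rich lines was thus about as high at 600 to 1000 bp from a replicate 2 summit as just inside the limit, while that of tandem repeats was concentrated at the summit.

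**Figure D2:**
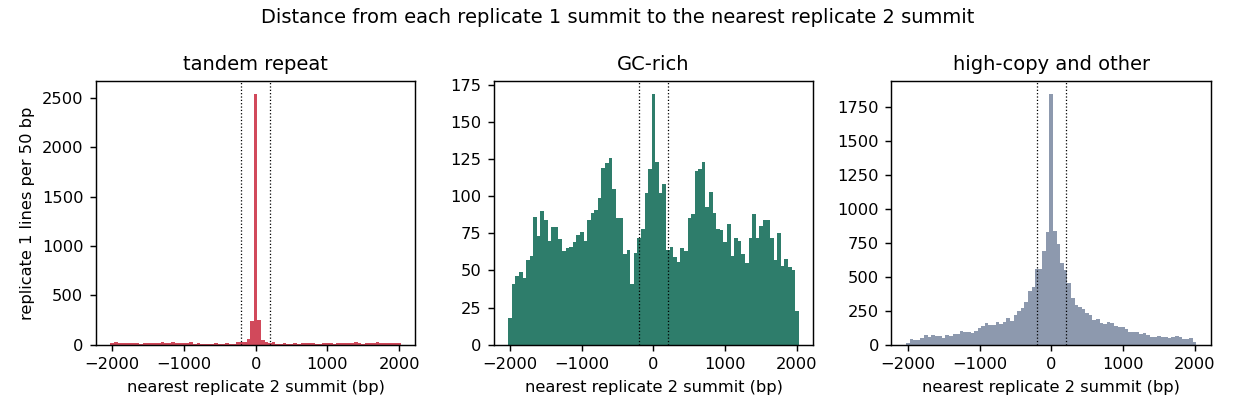
Distance from each kept replicate 1 summit to the nearest kept replicate 2 summit (x axis, bp, positive to the right on the plus strand) and the number of replicate 1 lines per 50 bp (y axis, a scale of its own in each panel), for the 3 sequence groups. Dotted lines mark 200 bp. Tandem repeats form a single narrow peak at 0, GC-rich summits have further maxima at about 600 to 700 bp on either side, and the high-copy group has a peak with broad flanks.

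Tandem repeats held most of the members with high ranks in replicate 1. Their median rank was 3386.5 in replicate 1 and 24560 in replicate 2. Repeats of AG, the most common unit, held 2225 members, followed by AC with 1.87% of all members, the telomere unit AACCCT with 156 and ACAG with 135. In windows placed every 20 kb over mm9, 2.19% had a tandem repeat, and AC was the most common unit there with 843 windows against 520 for AG. Units are given in the alphabetically first form of both strands, so that AG covers GA, CT and TC.

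The units differed in how often replicate 2 held the same summit. Telomere repeats were matched almost always, with 156 of 160 replicate 1 lines (97.5%). ACAG repeats were matched in 38.1%, AG repeats in 11.1% and AC repeats in 2.21%. The gap between AG and AC was smaller among the best lines, with 49.3% and 38.0% at ranks 1 to 5000 of replicate 1. At ranks 15001 to 30000 the shares were 3.43% and 0.919%. Seen from replicate 2, 92.0% of its 2344 AG summits and 74.0% of its 292 AC summits had a replicate 1 summit within 200 bp. AG lines that matched had a median rank of 2709 in replicate 1 and a median repeat length of 53 bp, and AG lines that did not match had a median rank of 25283 and a length of 56 bp. The matched and unmatched AG repeats thus differed in rank while their lengths were alike at the median.

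Telomere repeats lay mostly inside chromosomes. Of the 156 members, 98 were intergenic, 52 intronic, 4 at promoters and 2 exonic, and 4 lay within 100 kb of a chromosome end of the assembly. They filled 34 of the best 100 lines of replicate 1 and 74 of the best 100 of replicate 2. The best intergenic member, on chromosome 14 with a repeat of 150 bp, had ranks 5 and 3 and was found in wild type but not in malignant lists. The next, at position 152537203 of chromosome 5, lay 56 bp from the end of the assembled chromosome and had ranks 7 and 5. Both had copies elsewhere, with a median of 1753 and 1712 for their 24-base words, and whether reads could be placed uniquely there was not tested. The best intronic telomere member lay in Greb1, an oestrogen-regulated gene, and had ranks 14 and 9. Others of the best intronic members lay in Dopey2 (ranks 15 and 10), in Pde1c, which encodes a calmodulin-dependent phosphodiesterase (ranks 21 and 13), and in Ror2, a receptor for WNT5A (ranks 22 and 23). All 4 of these were found in both other stages, as were 152 of the 156.

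AG repeats were led by an intron of Qpct with ranks 10 and 106, whose product forms N-terminal pyroglutamate. The intergenic AG member nearest Car10, printed above, had ranks 9 and 151 and summits at the same base in both lists. An ACAG member 380 bp from a start of Gria1, a subunit of AMPA-type glutamate receptors, was the best member at a protein-coding promoter, with ranks 44 and 74 and 2 bp between summits.

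GC-rich members were mainly promoters. Of the 874, 693 lay within 1 kb of a transcript start (79.3%, 95% interval 76.45 to 81.93%), and they made up 77.6% of all promoter members. Their median GC was 76.1% and their median CpG ratio, observed over expected, was 0.923, against 0.135 over all members and 0.145 over the windows placed along mm9. The median of 24-base copies was 1.0, and 75.7% were single-copy by this count. Their median ranks were 27549.5 and 30620, and 60 of them were in the best 5000 lines of replicate 1. Around GC-rich protein-coding starts, 702 members lay within 2 kb and 462 of these within 250 bp, 231 upstream and 228 downstream, the rest at the start itself. In replicate 2 more kept summits lay in the 250 bp downstream of such starts than upstream, 590 against 416, while replicate 1 had 1511 and 1510.

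The members with ranks 1 to 3 in replicate 1 were all GC-rich, and the words in their windows had few copies in mm9. That count says nothing of copies in the rDNA repeats, and whether these windows match the rDNA sequence was not tested. The member at mmu-mir-689-2 on chromosome 16 had rank 1 in both lists, and that at mmu-mir-2134-4 on chromosome 9 had ranks 3 and 2. Their windows share the 104-base stretch shown above. Annotated copies of these microRNA names numbered 5, all 5 had a member, and each of those members was in all 4 lists of the other stages. The remaining 3 had ranks 432 and 193, 669 and 772, and 1099 and 556. Another GC-rich member, in an intron of Filip1l on chromosome 16, had rank 2 in replicate 1 and rank 42 in replicate 2. These copies share exact sequence, and how reads were placed among them was not tested.

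Single-copy promoters of protein-coding genes followed. Among the best were Ino80d, which encodes a subunit of the INO80 chromatin remodeller (ranks 103 and 53), the shared start of Elf1, an ETS factor, and Wbp4, a splicing factor (754 and 129), Hmgxb4, an HMG-box protein (884 and 126), and Upf1, the helicase of nonsense-mediated decay (1242 and 356). All of these were in lists of both other stages. These genes were named by rank within the GC-rich group, a choice made after the values were seen.

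The tandem array of 5S ribosomal RNA genes, which RNA polymerase III transcribes, was 1 region of replicate 1 with many summits. The array has 51 annotated genes spaced 1697 bp apart on chromosome 8, and 49 of them had a member within 1 kb. It held 66 members, 45 of them GC-rich, which is 5.15% of that group. No member lay inside a 5S gene. Over the whole array, replicate 1 had 22 of its 204 summits inside a gene and replicate 2 had 0 of 81. The copies are nearly identical, with a median of 49.75 copies for the 24-base words, so summits there are not independent, and how reads were divided among the copies was not tested. Over all annotated rRNA genes outside the rDNA sequence, 50 of 332 (15.1%) had a member, against 2.45% of all annotated genes of any kind. All but 1 of these 50 were in the 5S array, so the share comes from a single region.

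The high-copy group was the largest with the best 75000 lines, and it was the weakest in replicate 1. With the best 25000 lines of each list, tandem repeats were the largest group, with 63.5% of members. The median GC of the high-copy group was 40.3% and its median 24-base copy number 5428.25, and 82.99% of it had over 1000 copies. Its median rank was 50478.5 in replicate 1 and 28144.5 in replicate 2, and 680 of its members were in the best 5000 lines of replicate 1. Among the best ranked part, ranks 1 to 15000 of replicate 1, 984 members had a median summit distance of 9.0 bp and a median GC of 48.3%. At ranks 60001 to 75000 the 2018 members had 89.0 bp and 39.8%. The median copy number was 124 at ranks 1 to 15000 and 7066.25 at ranks 60001 to 75000. In windows placed along mm9, 8.81% had over 100 copies, against 72.3% of all members and 91.5% of the whole replicate 2 list.

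The same words recurred among its members. The word held by most of them was the AG repeat itself, in a run too short for the 40 bp limit, in 589 members (8.84%). The next 4 words in order of the members they added, after those with an earlier word were set aside, were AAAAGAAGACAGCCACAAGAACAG, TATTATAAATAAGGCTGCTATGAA, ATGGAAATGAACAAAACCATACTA and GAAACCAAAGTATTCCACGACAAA. Any of these 4, on either strand, was in 18.5% of the group, in no tandem repeat or GC-rich member, in 2.54% of unmatched replicate 1 lines, in 11.9% of unmatched replicate 2 lines and in 0.512% of windows along mm9. Since the words were picked from the members, the first share is a description. No annotation of repeat families was used, so the elements that carry the words are not named.

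The best of the high-copy group with over 1000 copies were an intergenic member nearest Lars2 on chromosome 9, with ranks 29 and 89, and an intergenic member nearest Slitrk5 on chromosome 14, with ranks 36 and 88. The member printed above as the middle of the group was intergenic on chromosome 17, with ranks 60021 and 20953 and 102 bp between summits. It was in 1 of the 4 lists of the other stages.

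By position, most members were intergenic. With promoters set as 1 kb around any GENCODE M1 transcript start, 893 members were at promoters (8.29%, 95% interval 7.77 to 8.82%), 38 in exons (0.35%), 2614 in introns (24.3%, 23.45 to 25.07%) and 7233 were intergenic (67.1%, 66.2 to 68.0%). The sequenced bases of mm9 were 4.15% promoter, 2.42% exon, 35.7% intron and 57.7% intergenic by the same rule. Intervals here are exact and cover counting error only. The promoter share of members lay between those of unmatched lines, 8.78% in replicate 1 and 1.92% in replicate 2. In the best 5000 lines of replicate 1 the promoter share of members was 5.28%. Exons were below their share of mm9 in the members and in every list, where they made up 0.15 to 0.65% of summits. The median distance from a member to the nearest protein-coding start was 71753 bp, against 49475 bp for the windows along mm9, and 43.5% of members lay over 100 kb away.

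Of the 38 exonic members, 10 were tandem repeats and 14 were GC-rich. The best was an AG repeat in an untranslated exon of Hes7, an oscillating repressor of the segmentation clock, with ranks 262 and 1772. The next was in an untranslated exon of Ephb2, an ephrin receptor, with ranks 794 and 1381 and a single-copy summit of 55.7% GC. An AG repeat in an untranslated exon of Slc25a42, a mitochondrial coenzyme A carrier, had rank 2308 in replicate 2 and a repeat of 66 bp. A summit in coding sequence where Ccdc85b and Fosl1, an AP-1 subunit, overlap in the annotation had ranks 2266 and 274. A telomere repeat in an untranslated exon of Arsb, a lysosomal sulfatase, had ranks 2162 and 390. All 5 were in lists of both other stages.

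Short motifs at the summits followed the groups. The GC box GGGCGG, searched on both strands, was in 70.6% of GC-rich members, 0.3% of the high-copy group and 1.90% of windows along mm9. GC-rich protein-coding starts themselves had it in 65.5%. The E-box CACGTG, the site bound by MYC with MAX, was in 3.09% of GC-rich members, against 6.78% of GC-rich protein-coding starts and 2.00% of windows along mm9. Over all members it was in 172 (1.596%). The ETS letters CCGGAAG were in 6.75% of GC-rich members and in 13.5% of GC-rich starts. These are matches of letters, and say nothing of which factor was bound.

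At genes, 712 of 22380 protein-coding genes had a member within 1 kb of a start, which is 3.18%. The corresponding share was 21.6% for the whole kept list of replicate 1 and 7.32% for that of replicate 2. In the wild type lists it was 25.5% and 20.3%, and in the malignant lists 18.2% and 12.7%. The named groups below are read against these values. Members are replicate 1 lines, so their counts are contained in those of replicate 1.

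B cell genes had a member at 4 of 24 promoters (16.7%), against 3.18% of all protein-coding genes, and in the single lists the group had a summit at 10 promoters in replicate 1 (41.7%) and 4 in replicate 2 (16.7%). The 4 were transcription factors of the lineage and all were GC-rich. Ebf1, which commits progenitors to the B lineage, had best promoter ranks of 3330 and 14873 in the wild type lists, of 2838 and 22504 in the premalignant lists and of 2759 and 46050 in the malignant lists. Ikzf1, encoding Ikaros, had 8014 and 18476, then 9919 and 12166, then 1100 and 12191. Both genes were thus within the best 50000 lines of all 6 lists. Ikzf3, encoding Aiolos, had 27503 in wild type replicate 1 and no kept summit in wild type replicate 2, then 22514 and 17312, then 16820 and 30732. Bach2, a repressor that acts in B cell selection, had 18277 and 35585, then 32449 and 49370, then 23309 and 20318. A best promoter rank need not be that of the member. In premalignant replicate 1 the Ikzf1 member had rank 22193 and the Bach2 member rank 33854. The receptor genes Cd79a, Cd79b and Il7r and the recombinase gene Rag2 had no kept promoter summit in any of the 6 lists. Pax5 and Cd22 had one in replicate 1, at ranks 27558 and 2435, and none in replicate 2.

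The MYC network had members at Mxi1 and Mnt, 2 of 13 genes, both encoding repressors that pair with MAX. Mxi1 had best promoter ranks of 31165 and 24267 and Mnt of 27229 and 42615 in the premalignant lists. In replicate 1 these were other summits than the members, which had ranks 34632 and 39827 there. Myc itself had a promoter summit in 4 lists but no member. Its best rank was 28225 and 7817 in the wild type lists, 4003 in premalignant replicate 1 and 310 in malignant replicate 1. Premalignant replicate 2 had 0 summits over Myc among all of its lines, and malignant replicate 2 had 2, the better at rank 196289. In the premalignant and malignant stages, replicate 1 thus held a kept summit at Myc and replicate 2 did not.

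Of the RNA polymerase I machinery, Ubtf alone had a member, 1 of 19 annotated genes. It had 5 members at its promoter, 1 of them with ranks 27158 and 1905. The best promoter rank of Ubtf, which need not be that of a member, was 8491 and 12927 for wild type lists. It was 7619 and 1905 for premalignant lists and 4929 and 47554 for malignant lists. Replicate 1 also held promoter summits of Cd3eap, Polr1c and Taf1d, at ranks of 61880 or beyond. Ribosomal protein genes had a member at Rpl14 alone, 1 of 83 genes (1.20%). The lists of ribosome assembly factors (25 genes), p53 and apoptosis (15), and T cell, myeloid and erythroid genes (12 each) had no member. The kept list of replicate 1 had a promoter summit at 9, 4, 1, 3 and 1 genes of these 5 lists. That of replicate 2 had one at 2 p53 and apoptosis genes and at no gene of the others. With 3.18% of all protein-coding genes holding a member, lists this short cannot show a lack of members. The 371 zinc finger genes of the Zfp names had 17 with a member (4.58%). Olfactory receptor genes, silent outside the nose, had 1 of 1113.

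Of the gene groups examined, the replication-dependent histone genes, which make the histones of S phase, differed most between the 2 premalignant lists. Replicate 1 had a summit at 55 of 67 (82.1%), with a median rank of 5892, and replicate 2 at 0 of 67, so that none was a member. The wild type lists had 51 and 48, malignant replicate 1 had 50, and malignant replicate 2 had 1. Using all lines of replicate 2, 13 of the 67 had a summit, while 7541 of all 22380 protein-coding genes did. The best were the pairs Hist1h2an with Hist1h2bp at rank 2066 and Hist1h2bq with Hist1h2ao at rank 2238 of replicate 1. These ranks were 1316 and 732 in malignant replicate 1. From the middle histone gene start, the nearest kept summit was 213 bp away in replicate 1 and 29677 bp away in replicate 2. The summit near Hist1h2an, at chr13:21878910-21879110, is printed with each CpG in capitals, and its 24-base words had a median of 10 copies.
Hist1h2an: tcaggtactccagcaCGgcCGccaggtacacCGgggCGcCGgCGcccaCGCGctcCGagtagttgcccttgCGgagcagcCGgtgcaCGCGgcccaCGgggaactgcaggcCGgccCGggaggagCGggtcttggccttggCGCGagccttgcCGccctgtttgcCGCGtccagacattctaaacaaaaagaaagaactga

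**Figure D3:**
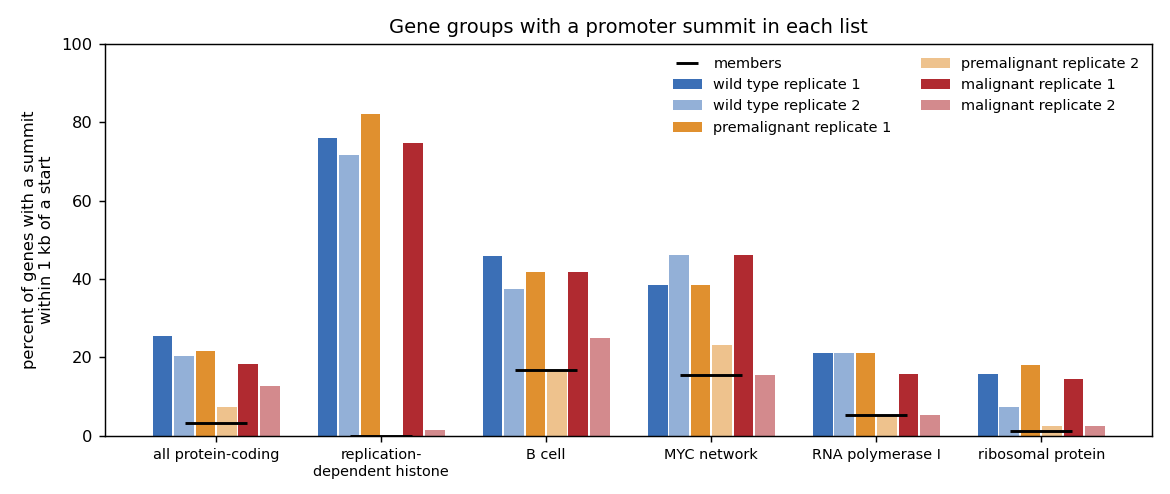
Percent of the genes of each group with a kept summit within 1 kb of a start (y axis) in each of the 6 lists (bars, full colour for replicate 1 and pale for replicate 2), with a black dash for the members. The histone bars stand at 71.6 to 82.1% in 4 lists and at 0 and 1.49% in premalignant and malignant replicate 2.

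Each premalignant list also held much that the other lacked. Unmatched lines numbered 64222 in replicate 1 and 64343 in replicate 2. Of the unmatched replicate 1 summits, 29.8% lay inside a kept replicate 2 region and 67.6% inside a region of the full replicate 2 list. Of all kept replicate 1 lines, members included, 40404 (53.9%) had some summit of the full replicate 2 list within 200 bp. Lines with neither a summit within 200 bp nor an overlapping region anywhere in the full other list numbered 18188 in replicate 1 (24.3%) and 34380 in replicate 2 (45.8%).

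Replicate 1 alone was rich in tandem repeats and in single-copy summits, and how many lines were both was not counted. Of its 18188 strictly lone lines, 70.3% were tandem repeats, 60.2% had single-copy words, and 12.6% were at promoters. Over its 64222 unmatched lines, AG and AC repeats numbered 17801 and 8895. The best lone line, which was not a tandem repeat by the 40 bp limit, lay 3857 bp from a start of Bgn, encoding the proteoglycan biglycan, on chromosome X at rank 453, and the next lay 18054 bp from Cacna1h, a T-type calcium channel gene, at rank 536. The third was a single-copy GC-rich promoter shared by Ubap2l and a neighbour, at rank 716. Of the 3, the first 2 were in all 4 lists of the other stages and the third was in 3 of them.

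The strictly lone lines of replicate 2 were close to its whole kept list in GC and copy number. Their median GC was 40.3%, as in the whole kept list, and their median copy number was 5285.5, against 5654.5 in the whole list. Their median width was 3756 bp, below the 6528 bp of the whole list. Lines with an overlapping region in the other list were left out, which favours narrow regions, so no trait is read from this width. Of these lone lines, 2.81% were tandem repeats and 2.33% were at promoters. The best 3 had ranks 80, 99 and 176, and all 3 were in all 4 lists of the other stages. The line of rank 99, at chr3:23741985-23742185 and 489884 bp from the nearest start, of Gm7536, is printed beside the best lone line of replicate 1 at chrX:70724984-70725184. Capitals mark the most copied 24-base word, with 41083 copies in mm9 for the first and 1159956 for the second. The first shares a 15-base stretch with the high-copy member printed above, at the end of one window and the start of the other.
Gm7536: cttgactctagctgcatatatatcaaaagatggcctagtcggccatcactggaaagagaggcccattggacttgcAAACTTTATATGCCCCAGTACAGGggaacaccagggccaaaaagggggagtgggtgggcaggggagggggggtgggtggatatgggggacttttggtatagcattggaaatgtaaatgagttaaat
Bgn: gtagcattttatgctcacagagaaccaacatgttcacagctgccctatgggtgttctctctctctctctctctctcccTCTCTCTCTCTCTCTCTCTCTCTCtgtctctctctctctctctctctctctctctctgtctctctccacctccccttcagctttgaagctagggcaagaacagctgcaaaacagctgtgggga

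Members were looked for in the kept lists of the other stages. Wild type lists had a summit within 200 bp of 47.1% and 46.4% of members, and malignant lists of 54.7% and 57.2%. Each such list places 1.131 to 1.165% of the sequenced bases within that distance. The groups behaved differently. Tandem repeat members were in both wild type lists at 95.6% and in the malignant lists at 80.5% and 71.7%. GC-rich members were at 76.7% and 70.8% in wild type and at 56.8% and 58.0% in malignant lists. High-copy members were at 19.6% and 19.3% in wild type and at 42.0% and 50.1% in malignant lists. The wild type lists thus held more of the repeat and GC-rich members, and the malignant lists more of the high-copy members, in each library of the stage. With 2 libraries a stage no test can call this difference. The order of the stages over all members turned with the length of the lists: the mean of the 2 lists was 46.7% in wild type and 56.0% in malignant with the best 75000 lines, and 89.2% and 80.4% with the best 25000.

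Of all members, 4712 (43.7%) were in at least 1 list of both other stages, 670 (6.22%) only in wild type, 3136 (29.1%) only in malignant and 2260 (20.97%) in neither. Of the members found only in malignant lists, 3055 were of the high-copy group, as were 2153 of those in neither. In the best 5000 lines of replicate 1, 99.7% and 99.5% of members were in the wild type lists and 96.7% and 89.3% in the malignant lists. The unmatched lines of each premalignant list went with different stages. Those of replicate 1 were in the wild type lists at 53.6% and 52.6% and in the malignant ones at 28.2% and 11.3%, and those of replicate 2 at 2.40% and 2.48% and at 19.9% and 33.4%.

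**Figure D4:**
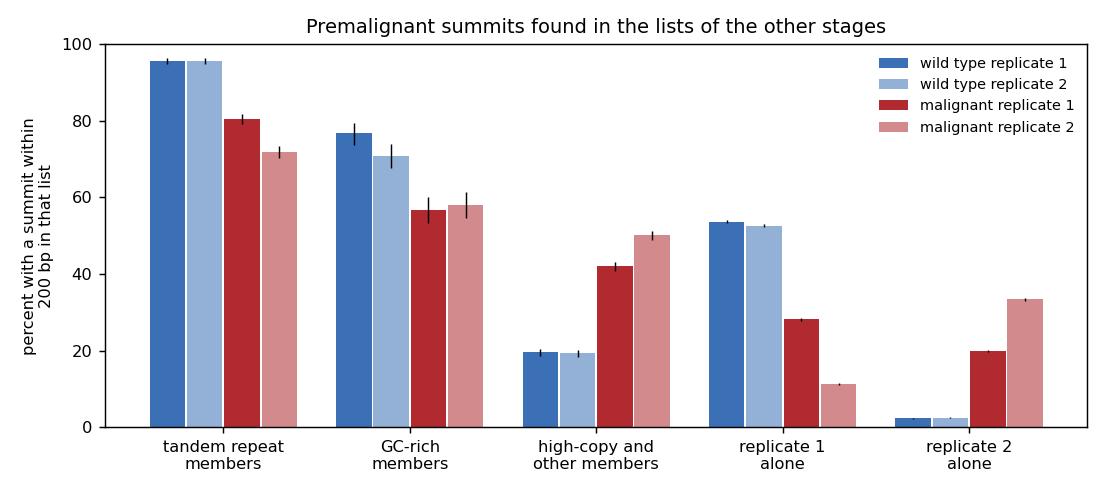
Percent of premalignant summits (y axis) with a summit within 200 bp in each kept list of the wild type and malignant stages, for the 3 groups of members and for the unmatched lines of each premalignant list. Bars are single libraries and error bars are 95% exact intervals of counting error. Tandem repeat members reach 95.6% in both wild type lists, and unmatched replicate 2 lines 2.40 and 2.48%.

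Over whole lists, premalignant replicate 1 shared 52.7% and 51.7% of its kept summits with the wild type lists and 14.4% with premalignant replicate 2. Premalignant replicate 2 shared 24.9% and 37.0% with the malignant lists and 8.72% and 8.74% with the wild type lists. Each premalignant library thus shared more with libraries of another stage than with its own replicate.

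As single values per library, 3 measures were compared between stages over the best 75000 lines. Wild type libraries had 10.4% and 8.24% of summits at promoters, premalignant libraries 8.71% and 2.78%, and malignant libraries 6.63% and 4.56%. The premalignant mean was 5.75% ± 4.195 (SD, n = 2), against 9.34% ± 1.56 (n = 2) in wild type (exact permutation test, two-sided, p = 0.667) and 5.60% ± 1.47 (n = 2) in malignant (p = 1.0, same exact test). Median GC was 47.8% in both wild type libraries, 46.3% and 40.3% in the premalignant ones and 42.3% and 41.8% in the malignant ones. The premalignant libraries lay below both wild type libraries (difference of means -4.48 percentage points, exact permutation p = 0.33) and on either side of the malignant ones (1.24 points, exact permutation p = 1.0). Tandem repeats held 60.7% and 63.6% of wild type summits, 44.8% and 5.73% of premalignant summits and 14.6% and 10.2% of malignant summits. Premalignant against wild type gave a difference of -36.9 points (exact permutation p = 0.33) and against malignant one of 12.9 points (exact permutation p = 1.0), with an SD of 27.6 points between the 2 premalignant libraries. With 2 libraries against 2 the smallest p is 0.33, and all 6 p-values were 1.0 after Benjamini-Hochberg adjustment, so no difference could be called. Without premalignant replicate 1 the differences from malignant turned to -2.82, -1.74 and -6.66 points in the same order of measures. The 2 premalignant libraries differed by more than the 2 of either other stage in all 3 measures.

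**Figure D5:**
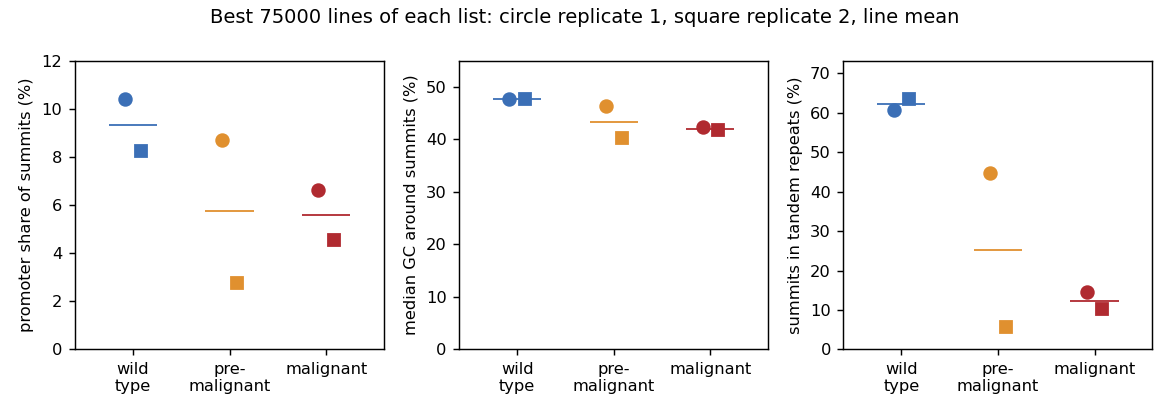
Promoter share of summits, median GC in the windows around summits and share of summits in tandem repeats (y axes, percent, from 0) over the best 75000 lines of each list, by stage (x axis). Circles are replicate 1, squares replicate 2 and lines the mean of 2 libraries. Premalignant replicate 1 lies nearer to wild type and replicate 2 nearer to malignant, with 44.8% and 5.73% of summits in tandem repeats.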

How the data were processed

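UBTF ChIP-seq peak lists of 6 libraries (3 stages, 2 each) were analysed. Per the methods and the submitters' processing notes, reads (CASAVA 1.8.2) were aligned with bowtie2 to mm9 plus 1 rDNA copy, duplicates were removed with Picard 1.110, and peaks were called in each library with SPP before the reproducibility step. The deposited lists give a score, which the authors' caller assigned and which was used only for ranks, a p-value column that holds a placeholder and was not used, and a q-value (FDR). Read depth is unknown.

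Summits were matched within 200 bp among the best 75000 lines outside rDNA, classed with GENCODE M1, and described over 100 bp on each side of the summit in the NCBIM37 (mm9) genome, with copies counted as exact 24-base words. Named genes were the best by mean rank in each class. Library values were compared by two-sided exact permutation tests; with 2 libraries per stage, p-values measure only the spread between these samples, which may be technical. Intervals are exact Clopper-Pearson (95%). Python 3.11.15, numpy 2.4.6, scipy 1.17.1 and pandas 2.3.3 were used, and the scripts were tested on simulated data. Members, groups and lists were chosen with earlier results of these data known.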

Additional observations from a re-analysis of the deposited data

How the results depend on the processing

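Of 134 values under alternatives, 6 changed sign and 21 others moved by more than the spread between the libraries or by over 1.5 times for a count. That spread was wide for the tandem repeat share, so some of the other 107 moved several-fold too. The number of members was 31560 with any overlap of regions, 2450 with the best 25000 lines, 42105 with all lines and 6957 with the best summit of each region. Median GC was 67.7% for summits with a median of 1 copy and 48.8% with the best 25000 lines. The tandem repeat share was 63.5% with the best 25000 lines, 10.99% in a 51 bp window and, chosen after seeing the data, 9.37% with a repeat minimum of 60 bp. The GC-rich share was 51.6% for summits with 1 copy. The mean share of members in wild type lists was 55.9% at 100 bp, 40.97% at 500 bp, 89.2% with the best 25000 lines and 64.2% with all lines, and in malignant lists 62.1% at 500 bp, 80.4% with the best 25000 and 69.4% with all lines. Genes with a member numbered 193 with the best 25000 lines and 2171 with all lines. With the best 25000 lines, premalignant minus malignant became -0.85 points for the promoter share and -1.49 for GC. The cause of these changes was not tested.

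Leaving out a library gave promoter shares of 2.78 to 8.71% in place of that of the members, tandem repeat shares of 5.73 to 44.8% and GC-rich shares of 2.49 to 17.6%. Premalignant minus wild type then ranged from -6.57 to -0.633 points for promoters, -7.46 to -1.49 for GC and -56.4 to -17.4 for tandem repeats. Premalignant minus malignant ranged from -2.82 to 3.11, -1.74 to 4.23 and -6.66 to 32.4, and for promoters was -0.889 without malignant replicate 2. These are values with no test. Using all lines, chosen after seeing the data, 13 histone genes had a replicate 2 summit.

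The replicate numbers were not shown to pair the libraries: differences of replicate 1 and 2 over 2649 bins correlated at -0.04 between wild type and premalignant, 0.08 between wild type and malignant and 0.27 between premalignant and malignant. With the replicate block, premalignant minus wild type was -3.60, -4.48 and -36.9 points (exact sign-flip p = 0.5, the smallest possible), and premalignant minus malignant 0.147, 1.24 and 12.9 points (exact sign-flip p = 1.0), and the block changed no call.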

Other observations

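Members were spread unevenly over chromosomes. Their density ran from 2.48 per Mb on chromosome 19 to 5.59 per Mb on chromosome 3 among the autosomes. Chromosome 11 was low too, with 2.98 members per Mb. The high-copy group made most of this range, from 1.08 per Mb on chromosome 19 to 3.90 on chromosome 3, while tandem repeats lay between 0.998 and 1.64 per Mb of autosome. Chromosomes 19 and 3 also differed in the kept lists, with 20.6 and 34.1 lines per Mb in replicate 1 and 23.1 and 35.2 in replicate 2. The unevenness was thus not peculiar to members. The X chromosome had 753 members, with 3.76 per Mb of the high-copy group and 0.0679 per Mb of GC-rich members, which was below every autosome. The assembled part of the Y chromosome, 2.703 Mb, had 23 members, or 8.51 per Mb, which was above every other chromosome. The kept premalignant lists held 108 Y lines in replicate 1 and 239 in replicate 2. Premalignant mice were female by the study's methods, and the source of these Y lines was not tested.

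Small RNA genes had few members apart from the 5S array. Of 1423 small nuclear RNA genes 12 had one (0.843%), of 1552 small nucleolar RNA genes 8 (0.516%) and of 1577 microRNA genes 23 (1.46%), against 2.45% of all genes.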
